A study of Mus musculus and Rattus norvegicus with 24 samples.

Results

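A set of 10 genes of the circadian clock and its output was followed through the first hours after a stroke, in mouse and in rat brain. They were taken by gene symbol: Dbp, Tef, Hlf, Nfil3, Per1, Per2, Per3, Nr1d1, Nr1d2 and Bhlhe40. The set, and the lists of other genes used below, were chosen with earlier results of these data known. Their counts beside the shares of all symbols are therefore descriptive. In each species 9 of these 10 symbols were measured on their own, among 22184 gene symbols tested in mouse and 18183 in rat. Mouse Per2 shares its transcript cluster, the unit that the array reports, with a second symbol and was not used. For rat Nr1d2 the platform annotation lists no cluster. The rat Hlf cluster carries the symbol Hlf under 2 gene IDs.

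The animals were adult males, C57BL/6 mice aged 8 to 10 weeks and Sprague-Dawley rats aged 8 to 12 weeks, housed on a 12 h light and 12 h dark cycle. A filament was advanced to the origin of the middle cerebral artery and tied in place, a permanent occlusion (MCAO), on the right side in mice and on the left in rats. Sham animals had the same operation without the occlusion. A piece of 3 by 3 mm was cut at 2 h or 6 h from the penumbra, the tissue around the ischaemic core, or from the same area of a sham brain, and its RNA was read on whole-transcript arrays. The 8 groups were therefore MCAO and sham, at 2 h and 6 h, in each species, with 3 animals and 1 array per animal in each group and 24 arrays in all. All animals, shams included, had been under isoflurane. The available records do not state at what hour of the day the animals were operated on or the tissue was taken. The occlusion and sham groups were compared at the same interval, 2 h or 6 h. Whether they were also matched in time of day could not be checked. Time of day and occlusion therefore cannot be told apart in these comparisons.

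In the mammalian clock the activators BMAL1 and CLOCK bind E-boxes and switch on the Period and Cryptochrome genes, whose proteins then repress BMAL1 and CLOCK, so that RNA levels cycle over the day. The PAR bZIP factors DBP, TEF and HLF carry this rhythm to output genes through D-box elements, where NFIL3 (E4BP4) acts as their repressor. REV-ERB alpha and beta (Nr1d1 and Nr1d2) repress through ROR elements, BHLHE40 (DEC1) represses at E-boxes, and Per1 is in addition induced rapidly by light, neuronal activity and glucocorticoids.

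Promoters of Tef, Per3, Nfil3 and Per1, members that are described below, held E-box, D-box or ROR motifs. The RefSeq promoter table of mouse assembly GRCm38.p6 (250 bases before to 50 bases after each start) held 8 of the 10 genes, without Per2 and Bhlhe40. Those of Per3, Nfil3 and Per1 are printed 5′ to 3′ with the matches in capitals. These genes changed in at least 1 comparison below, Per3 in rat only, and rat promoters were not searched.
Per3 promoter, chr4:151044616-151044915, minus strand: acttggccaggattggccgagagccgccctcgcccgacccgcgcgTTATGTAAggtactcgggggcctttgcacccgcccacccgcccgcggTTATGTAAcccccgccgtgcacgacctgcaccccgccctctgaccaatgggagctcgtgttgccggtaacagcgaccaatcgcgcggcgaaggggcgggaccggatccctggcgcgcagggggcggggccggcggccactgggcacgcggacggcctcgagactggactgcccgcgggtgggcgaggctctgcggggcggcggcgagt
Nfil3 promoter, chr13:52980990-52981289, minus strand: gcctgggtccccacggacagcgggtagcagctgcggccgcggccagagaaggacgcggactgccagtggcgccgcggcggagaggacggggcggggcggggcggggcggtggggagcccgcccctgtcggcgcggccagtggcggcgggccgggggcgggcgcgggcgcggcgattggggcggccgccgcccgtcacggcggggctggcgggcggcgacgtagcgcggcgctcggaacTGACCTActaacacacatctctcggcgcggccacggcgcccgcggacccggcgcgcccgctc
Per1 promoter, the upstream start, chr11:69098699-69098998, plus strand: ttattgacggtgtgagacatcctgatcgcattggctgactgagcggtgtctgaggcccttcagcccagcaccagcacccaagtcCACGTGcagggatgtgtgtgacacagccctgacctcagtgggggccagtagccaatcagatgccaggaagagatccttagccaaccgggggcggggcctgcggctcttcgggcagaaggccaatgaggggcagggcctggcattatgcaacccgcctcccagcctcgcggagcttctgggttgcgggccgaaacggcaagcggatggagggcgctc
The capitals in Per3 mark 2 copies of the D-box TTATGTAA, beginning 205 and 158 bases before the start. Those in Nfil3 mark the ROR element TAGGTCA read on the other strand, beginning 12 bases before the start. Those in Per1 mark the E-box CACGTG, beginning 166 bases before the start, while the second listed start of Per1 held none of the motifs searched. Perfect matches were sought on both strands, and matches of different motifs did not overlap. Of all 32851 promoters in the table, 7.15% held the E-box, 1.06% held a D-box (TTATGTAA or TTACGTAA), 2.61% the ROR element, 1.79% the cAMP response element TGACGTCA and 19% the glucocorticoid receptor motif AGAACA. Among the other members, both Tef starts held an E-box, the second also AGAACA, and Hlf held TGACGTCA. Dbp, Nr1d1 and Nr1d2 held none of the motifs searched. A match describes letters in these windows and no more.

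At 6 h of occlusion Dbp was lower and Nfil3 higher in both species. Hlf and Nr1d2 were also lower in mouse, and in rat Per3 was lower and Per1 higher. Of the 9 members, 4 passed the threshold in mouse at 6 h, where 7.43% of all symbols passed. They were 1 higher (3.2% of all symbols) and 3 lower (4.23%). In rat at 6 h 4 members passed, where 6.47% of all symbols did, 2 of them higher (2.85%) and 2 lower (3.62%). At 2 h the mouse call was Nfil3 alone (1 of 9, against 0.298% of all symbols), and in rat 0 of 9 passed (0.066% of all symbols). The rat 2 h members with an unadjusted p under 0.05 numbered 4 of 9, against 7.08% of all symbols. The test was limma across all symbols of a species with Benjamini-Hochberg adjustment, and a gene passed at an adjusted p under 0.05. Values are log2 expression values as deposited, fold changes are differences between group means on that scale with the standard error (SE) of the fit, and n is 3 in every group. In pieces of tissue, fewer cells of a type and less RNA per cell cannot be told apart.

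**Figure D1:**
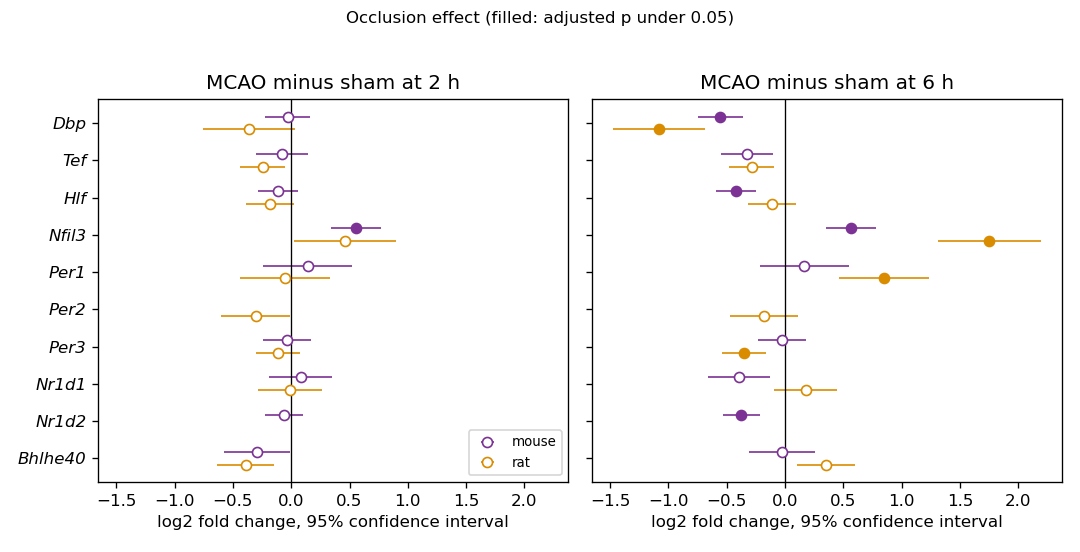
Log2 fold change of MCAO over sham for each member at 2 h (left) and 6 h (right), in mouse (purple) and rat (orange), with 95% confidence intervals. Filled points passed an adjusted p of 0.05; at 6 h Dbp lies left of 0 and Nfil3 right of 0 in both species, with the rat point of each farther out.

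Dbp, a D-box activator with a strong daily rhythm in many tissues, was at 6 h the member with the largest fall in each species. In mouse at 6 h it read 8.56, 8.78 and 8.64 in the MCAO animals, against 9.16, 9.20 and 9.28 in the shams. Every MCAO animal lay below every sham, and the log2 fold change was -0.55 ± 0.09 (SE, 0.681-fold, adjusted p = 0.00598). In rat at 6 h the MCAO animals read 10.24, 10.30 and 9.51, against 11.19, 11.09 and 11.00 in the shams. These groups did not overlap either, and Dbp was at 0.474-fold (log2 fold change -1.08 ± 0.18 SE, adjusted p = 0.00554). MCAO replicate 3 was the lowest of the rat animals, and the call held without any 1 of the 6 arrays.

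At 2 h Dbp had not passed in either species. The mouse MCAO animals read 9.46, 9.27 and 9.50, against 9.58, 9.40 and 9.34 in the shams, overlapping groups with a log2 fold change of -0.03 and a 95% confidence interval from -0.22 to 0.16. The rat MCAO animals read 11.04, 11.11 and 10.98, against 11.52, 11.12 and 11.58 in the shams. The rat groups were just apart, with a log2 fold change of -0.36 ± 0.18 (SE, adjusted p = 0.736).

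Hlf and Tef, the other PAR bZIP activators, had smaller differences. Mouse Hlf at 6 h read 8.36, 8.42 and 8.16 in MCAO animals, against 8.74, 8.73 and 8.73 in shams. It fell to 0.747-fold with no overlap (log2 fold change -0.42 ± 0.08 SE, adjusted p = 0.0119). Rat Hlf at 6 h read 5.35, 5.28 and 5.37 in MCAO animals, against 5.61, 5.35 and 5.37 in shams, overlapping groups with an adjusted p of 0.545. It was dim in rat, below the array median, which lay between 5.82 and 5.87 on these arrays.

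Tef was below sham in all 3 MCAO animals of both species at 6 h without passing. In mouse it read 6.56, 6.89 and 6.70 in MCAO animals, against 6.99, 6.90 and 7.24 in shams (log2 fold change -0.33 ± 0.10 SE, adjusted p = 0.0759). In rat it read 8.17, 7.92 and 7.86 in MCAO animals, against 8.33, 8.19 and 8.29 in shams (log2 fold change -0.29 ± 0.09 SE, adjusted p = 0.0784). Each of these passed when 1 array was left out, at an adjusted p of 0.049 without mouse MCAO replicate 2 and 0.0282 without rat MCAO replicate 1. A second, dimmer mouse Tef cluster had a log2 fold change of -0.19 at 6 h (adjusted p = 0.427). At 2 h Tef and Hlf did not pass, with log2 fold changes of -0.08 and -0.11 in mouse and -0.24 and -0.18 in rat.

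Nfil3, the repressor that competes with these activators for D-boxes, was the member with the largest difference of all. In rat at 6 h it read 7.94, 7.08 and 7.94 in MCAO animals, against 5.84, 6.07 and 5.79 in shams. Even the lowest MCAO animal lay well above the highest sham, and Nfil3 rose 3.37-fold (log2 fold change 1.75 ± 0.20 SE, adjusted p = 0.000589), the symbol of rank 46 by p among all 18183. In mouse at 6 h it read 7.12, 7.36 and 7.26 in MCAO animals, against 6.87, 6.61 and 6.56 in shams. These groups were also apart, with a rise of 1.48-fold (log2 fold change 0.57 ± 0.10 SE, adjusted p = 0.00877).

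Nfil3 was also the earliest member to pass. Mouse MCAO animals at 2 h read 7.34, 7.29 and 7.40, against 6.67, 6.75 and 6.94 in shams. The groups did not overlap and the rise was 1.47-fold (log2 fold change 0.56 ± 0.10 SE, adjusted p = 0.0446). That adjusted p was just under the threshold, and it lay between 0.0605 and 0.182 when any 1 of the 6 arrays was left out. The call was also lost after centring or quantile normalization. Rat MCAO animals at 2 h read 6.97, 7.49 and 7.17, against 6.72, 6.79 and 6.74 in shams, groups without overlap whose log2 fold change of 0.46 ± 0.20 (SE) did not pass (adjusted p = 0.694).

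**Figure D2:**
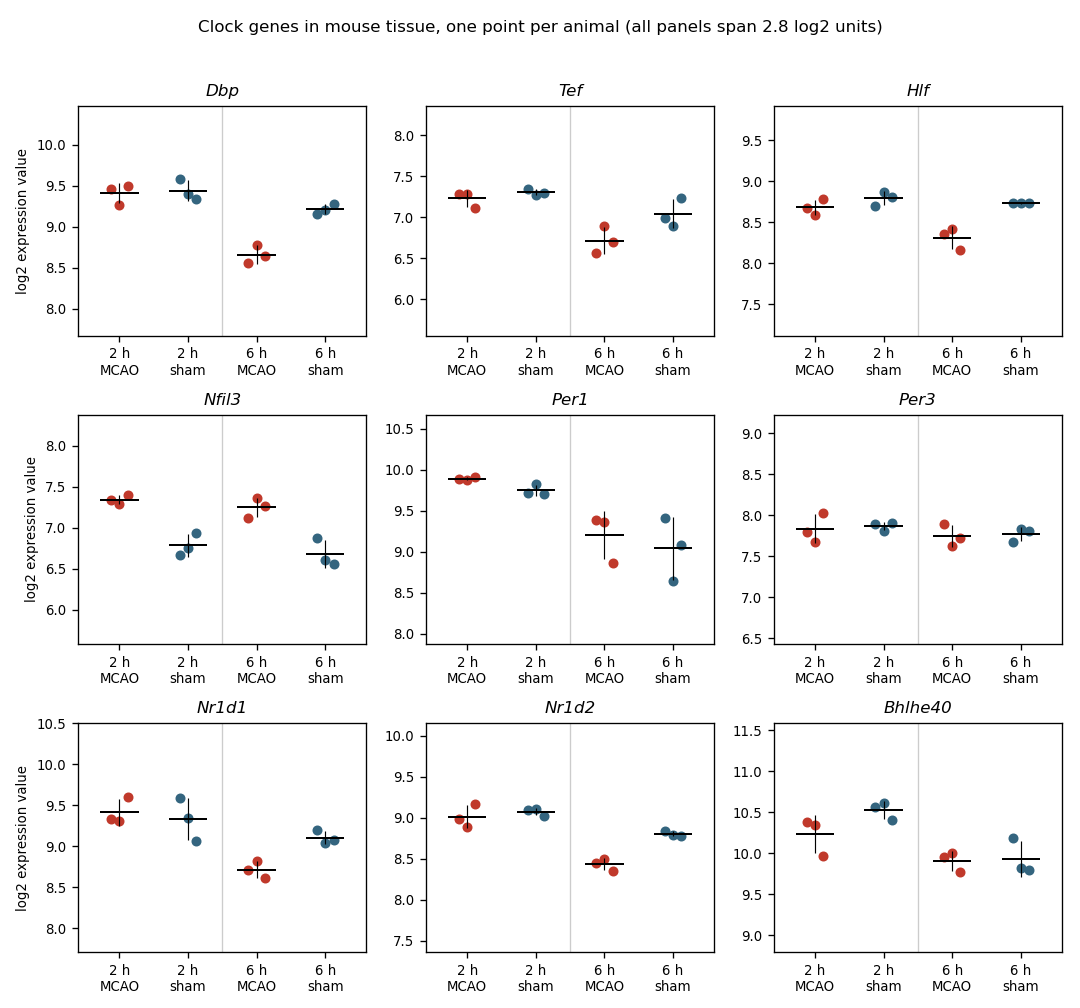
Log2 expression value of the 9 members measured in mouse, 1 point per animal, MCAO (red) beside sham (blue) at 2 h and 6 h, with bars for the mean and its SD (n = 3). Dbp, Hlf and Nr1d2 are lower in MCAO at 6 h and Nfil3 is higher at both times; the panels share a height of 2.8 log2 units but not their levels.

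Among the Period genes, repressors of the core loop, Per1 rose and Per3 fell in rat at 6 h. Rat Per1 read 8.91, 8.72 and 8.54 in MCAO animals, against 8.02, 7.85 and 7.76 in shams. Every MCAO animal was above every sham, and Per1 was 1.8-fold higher (log2 fold change 0.85 ± 0.18 SE, adjusted p = 0.0157). The adjusted p was 0.0523 to 0.0566 without MCAO replicate 1, sham replicate 2 or sham replicate 3. Mouse Per1 at 6 h spread widely, reading 9.39, 9.37 and 8.87 in MCAO animals, against 9.41, 8.64 and 9.08 in shams. Those groups overlapped (log2 fold change 0.17 ± 0.17 SE, adjusted p = 0.612, 95% confidence interval from -0.21 to 0.55).

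At 2 h Per1 did not pass in either species. Mouse MCAO animals read 9.89, 9.88 and 9.91, against 9.72, 9.83 and 9.71 in shams, a narrow separation with a log2 fold change of 0.14 ± 0.17 (SE, adjusted p = 0.898). Rat MCAO animals read 8.88, 9.49 and 8.70, against 9.28, 9.0 and 8.95 in shams, overlapping with a log2 fold change of -0.05. MCAO replicate 2 was the highest of the rat 2 h animals for Per1.

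Per3 fell at 6 h in rat. It read 7.46, 7.61 and 7.44 in MCAO animals, against 7.94, 7.89 and 7.74 in shams. The groups did not overlap (log2 fold change -0.35 ± 0.09 SE, 0.783-fold, adjusted p = 0.0335). This call was lost without MCAO replicate 1, MCAO replicate 3, sham replicate 1 or sham replicate 2 (adjusted p from 0.0889 to 0.121). Mouse Per3 at 6 h read 7.89, 7.63 and 7.72 in MCAO animals, against 7.68, 7.83 and 7.81 in shams, with a 95% confidence interval of the difference from -0.23 to 0.18. At 2 h its log2 fold change was -0.03 in mouse and -0.11 in rat, and neither passed.

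Per2 was measured in rat only and passed at neither time. At 6 h it read 7.50, 7.82 and 7.82 in MCAO animals, against 8.06, 7.82 and 7.80 in shams (log2 fold change -0.18 ± 0.14 SE, adjusted p = 0.483). At 2 h the MCAO animals, at 7.83, 7.67 and 7.82, lay below the shams, at 8.38, 7.85 and 8.00 (log2 fold change -0.30 ± 0.14 SE, adjusted p = 0.70).

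**Figure D3:**
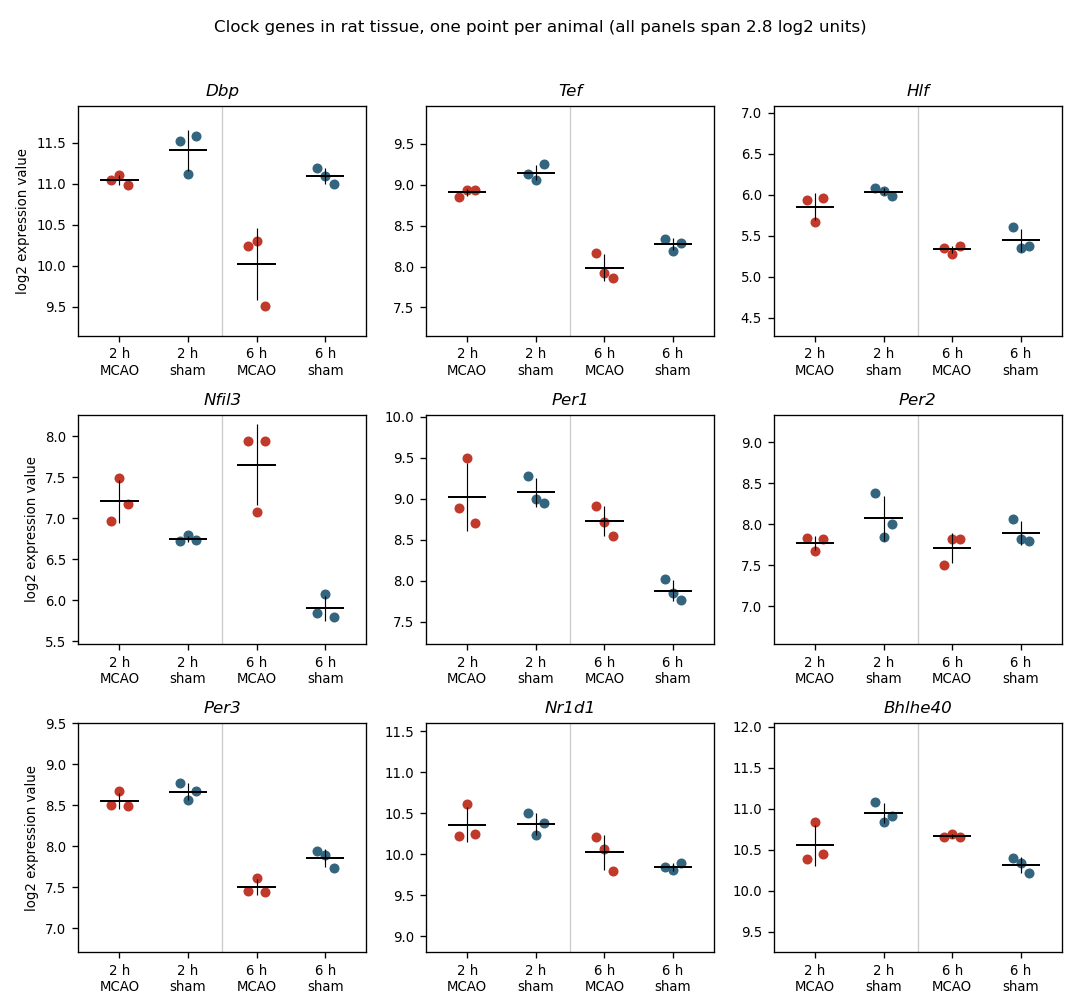
Log2 expression value of the 9 members measured in rat, 1 point per animal, MCAO (red) beside sham (blue) at 2 h and 6 h, with bars for the mean and its SD (n = 3). At 6 h Nfil3 and Per1 are higher and Dbp and Per3 lower in MCAO; the lower level of several genes at 6 h accompanies an array median between 5.82 and 5.87 at 6 h and between 6.67 and 6.75 at 2 h.

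Of the REV-ERB receptors, which repress Bmal1, Nr1d2 fell at 6 h in mouse. It read 8.44, 8.50 and 8.35 in MCAO animals, against 8.84, 8.79 and 8.78 in shams. It fell to 0.772-fold with no overlap (log2 fold change -0.37 ± 0.07 SE, adjusted p = 0.0145). Nr1d1 read 8.71, 8.82 and 8.61 in MCAO animals, against 9.20, 9.04 and 9.08 in shams, again apart, but did not pass (log2 fold change -0.39 ± 0.12 SE, adjusted p = 0.0763). The rat groups overlapped at 6 h: Nr1d1 read 10.21, 10.06 and 9.79 in MCAO animals, against 9.84, 9.80 and 9.89 in shams (log2 fold change 0.18 ± 0.12 SE, adjusted p = 0.449). At 2 h neither receptor passed, with log2 fold changes of 0.08 for mouse Nr1d1, -0.06 for mouse Nr1d2 and -0.01 for rat Nr1d1.

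Bhlhe40, the E-box repressor that hypoxia also induces, passed in no comparison of MCAO with sham. Rat MCAO animals at 6 h read 10.65, 10.69 and 10.65, against 10.40, 10.33 and 10.21 in shams. All 3 were above the shams (log2 fold change 0.35 ± 0.11 SE, adjusted p = 0.0893). Rat MCAO animals at 2 h read 10.38, 10.84 and 10.44, against 11.08, 10.84 and 10.91 in shams, where MCAO replicate 2 tied with a sham (log2 fold change -0.39 ± 0.11 SE, adjusted p = 0.443). Mouse MCAO animals at 2 h read 10.38, 10.35 and 9.97, all below the shams at 10.56, 10.61 and 10.40 (log2 fold change -0.29 ± 0.13 SE, adjusted p = 0.638). At 6 h the mouse groups overlapped, at 9.95, 10.00 and 9.77 in MCAO animals and 10.18, 9.82 and 9.79 in shams.

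Counted over the members, groups without overlap numbered 6 of 9 in mouse at 6 h, where 25.3% of all symbols had none, and 6 of 9 in rat at 6 h, where the share was 24.5%. At 2 h they numbered 3 of 9 in mouse (14.6% of all symbols) and 5 of 9 in rat (13.1%). The median log2 fold change of the members at 6 h was -0.33 in mouse, against -0.02 over all symbols, and -0.11 in rat, against -0.02. At 2 h it was -0.03 in mouse, against -0.01, and -0.18 in rat, against a median that rounds to 0 over all symbols.

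Whether an effect changed between 2 h and 6 h was tested as the difference of the occlusion effects, which shares its arrays with the comparisons above. In neither species did a member pass (0 of 9 each by limma, against 0.171% of all symbols in mouse and 0.231% in rat), and 4 of 9 in each had an unadjusted p under 0.05, against 14% of all symbols in mouse and 10.8% in rat. In mouse the largest was Dbp, at -0.52 ± 0.12 (SE, log2, adjusted p = 0.106), while Nfil3 differed by 0.01 ± 0.14. In rat Nfil3 differed by 1.29 ± 0.28 (SE, adjusted p = 0.108), Bhlhe40 by 0.74 ± 0.16 (adjusted p = 0.104), Per1 by 0.90 ± 0.25 (adjusted p = 0.202) and Dbp by -0.71 ± 0.26 (adjusted p = 0.325). Without rat MCAO 2 h replicate 2, the highest of its group for Per1, Nr1d1, Nfil3 and Bhlhe40, the rat differences of Bhlhe40 (0.88, adjusted p = 0.0169) and Per1 (1.13, adjusted p = 0.0253) passed. Without rat MCAO 6 h replicate 2 that of Nfil3 did (1.58, adjusted p = 0.00427).

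The species were set side by side as the mouse effect minus the rat effect, over 14219 symbols measured in both and 8 members. At 6 h Nfil3 passed, at -1.19 ± 0.22 (SE, log2, adjusted p = 0.0127), a smaller rise in mouse than in rat. This call was lost with the striatal covariate (adjusted p = 0.0709) and with only the 6 arrays of each species at 6 h (adjusted p = 0.0636), and 2.27% of all matched symbols passed. The other 7 members did not pass. Among them Nr1d1 differed by -0.57 ± 0.18 (adjusted p = 0.087), Per1 by -0.68 ± 0.25 (adjusted p = 0.153), Per3 by 0.33 ± 0.13 (adjusted p = 0.201) and Dbp by 0.52 ± 0.20 (adjusted p = 0.201). Hlf differed by -0.31 ± 0.12 (adjusted p = 0.204), Bhlhe40 by -0.37 ± 0.17 (adjusted p = 0.284) and Tef by -0.04 ± 0.14 (adjusted p = 0.925). All of these 7 but Tef had an unadjusted p under 0.05 in the same test, from 0.00342 for Nr1d1 to 0.0404 for Bhlhe40. Bhlhe40 ranked 2025 by p among the 14219 symbols, so p-values this low were common. The intervals of the member differences were wide, from 0.10 to 0.95 for Dbp, so the data do not show that Dbp fell alike in the species. At 2 h 0 of 8 passed (0.0141% of all matched symbols), and none of the 8 had an unadjusted p under 0.05. The species differed in the side of the occlusion and in the array platform as well, and these cannot be told apart.

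The rest of the clock was read from a list of 27 genes, of which 24 were measured in each species. At 2 h, 0 of 24 passed by limma in mouse and 0 of 24 in rat, where 0.298% and 0.066% of all symbols passed. In each species 2 had an unadjusted p under 0.05, close to the share of all symbols (7.71% in mouse and 7.08% in rat). At 6 h 3 passed in mouse, 2 higher and 1 lower, and 2 passed in rat, both higher, where 7.43% and 6.47% of all symbols of these species passed. Without 1 array the counts were 1 to 4 in mouse and 1 to 3 in rat. The activators Bmal1 (Arntl in the mouse table), Clock and Npas2 did not pass, and Bmal1 had log2 fold changes of 0.01 in mouse and 0.37 ± 0.12 (SE, adjusted p = 0.0935) in rat.

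Of the Cryptochromes, the partners of the Period proteins, Cry1 rose in mouse and Cry2 in rat. Mouse Cry1 at 6 h read 7.29, 7.45 and 7.62 in MCAO animals, against 7.04, 6.85 and 7.0 in shams (log2 fold change 0.49 ± 0.10 SE, adjusted p = 0.0154, or 0.0533 without sham replicate 2). Rat Cry2 at 6 h read 9.83, 9.53 and 9.79 in MCAO animals, against 9.17, 9.11 and 9.14 in shams (log2 fold change 0.58 ± 0.10 SE, adjusted p = 0.00733). Neither pair of groups overlapped. In the other species these genes pointed the same way without passing, Cry2 by 0.16 in mouse and Cry1 by 0.24 in rat, and the species difference did not pass for Cry1 (adjusted p = 0.458) or Cry2 (adjusted p = 0.0711).

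Noct, a rhythmic output gene that encodes nocturnin, passed in both species at 6 h. It read 7.51, 7.81 and 7.79 in mouse MCAO animals, against 7.48, 7.23 and 7.23 in shams (log2 fold change 0.39 ± 0.10 SE, adjusted p = 0.0379). In rat it read 8.25, 8.21 and 8.77 in MCAO animals, against 7.83, 7.70 and 7.76 in shams (log2 fold change 0.65 ± 0.13 SE, adjusted p = 0.0149). The mouse call was lost without any 1 of 4 arrays (adjusted p from 0.107 to 0.125) and the rat call without sham replicate 2 (adjusted p = 0.0599). Rorb, a ROR receptor gene, fell in mouse at 6 h, to 9.65, 9.76 and 9.41 in MCAO animals, against 10.24, 10.06 and 10.22 in shams (log2 fold change -0.57 ± 0.11 SE, adjusted p = 0.0112). Rora, its paralog, gave the only species difference of the list at 6 h (-0.51 ± 0.12 SE, adjusted p = 0.0288), with log2 fold changes of -0.20 in mouse and 0.31 in rat that did not pass on their own.

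**Figure D4:**
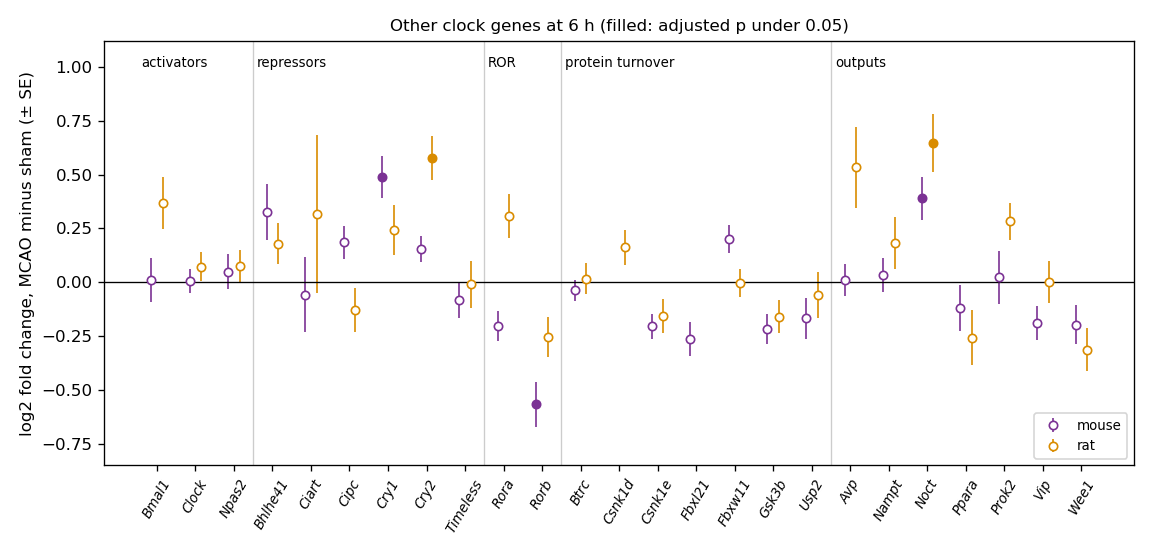
Log2 fold change of MCAO over sham at 6 h, with its SE, for the other clock genes measured, in mouse (purple) and rat (orange), grouped by role. Filled points passed an adjusted p of 0.05: Cry1, Rorb and Noct in mouse, Cry2 and Noct in rat.

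Other signals moved at the same times. Of all symbols, 0.298% passed at 2 h in mouse and 0.066% in rat, and at 6 h 7.43% and 6.47% did. Of 13 immediate early genes measured in mouse, 7 were higher at 2 h (median log2 fold change 0.93) and 8 at 6 h (0.64), and in rat 2 of 12 were higher at 2 h (1.05, and 0 to 4 of 12 without 1 array) and all 12 at 6 h (2.08). Of the glucocorticoid-responsive list, which leaves out Per1, 5 of 12 were higher and 1 lower at 6 h in both species, while at 2 h 1 of 12 was lower in mouse (0 without any 1 array) and 2 in rat (0 to 2). Of 11 hypoxia-induced genes, 5 were higher at 6 h in mouse (2 to 4 without 1 array) and 6 in rat (5 to 7). At 2 h 0 of them passed by limma, when 2 in mouse (7.71% of all mouse symbols) and 3 in rat had an unadjusted p under 0.05. The part of these signals in the results on the clock genes was not tested.

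Markers of cells in the piece also differed. In mouse at 6 h 2 of 7 striatal neuron markers were lower, with a summed log2 level of 49.97 to 51.22 in MCAO animals and 51.63 to 59.81 in shams, in which sham replicate 2 was the lowest. That count was 7 of 7 without sham replicate 2 and 0 to 1 without any other array of the comparison. With the mean of these markers as a covariate the mouse 6 h values of Dbp (-0.51), Hlf (-0.42), Nfil3 (0.57) and Nr1d2 (-0.38) stayed close while none passed (adjusted p from 0.144 to 0.189). In rat at 6 h 0 of 8 striatal markers passed by limma (2 at an unadjusted p under 0.05), with a summed level of 54.86 to 55.21 in MCAO animals and 53.69 to 54.20 in shams, and the Dbp, Nfil3 and Per1 calls held with the covariate while that of Per3 did not (adjusted p = 0.124). Microglial markers were lower at 6 h in mouse (4 of 7, and 2 to 3 without 1 array, with a summed level 49.02 to 50.20 in MCAO animals and 52.03 to 52.22 in shams) and in rat (3 of 6, and 1 to 3 without 1 array, with 41.68 to 43.94 in MCAO animals and 44.96 to 45.64 in shams). Neutrophil markers were higher in rat at 6 h (2 of 8, and 0 to 3 without 1 array, with 43.61 to 45.03 in MCAO animals and 39.03 to 39.94 in shams). In mouse at 6 h 0 of 8 passed by limma (4 at an unadjusted p under 0.05, where 23.3% of all mouse symbols were). No marker was listed at 0, and the part of microglia and neutrophils was not tested. Markers of cortical projection neurons averaged 9.23 to 9.63 per mouse array and 9.12 to 10.15 per rat array, above the array medians. At 6 h they were called lower in mouse for 1 of 7 (summed level 64.64 to 64.81 in MCAO animals and 65.19 to 65.61 in shams) and in rat for 1 of 5 (45.58 to 46.70 in MCAO animals and 47.07 to 47.61 in shams). The summed levels did not overlap in either species, and their part in the clock gene results was not tested.

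Sham animals at 6 h were set against sham animals at 2 h to see how the members moved with time alone. Because the medians of the arrays differ between the times, each array was centred on its own median first, and values below are log2 differences from it. Time after surgery, time of day and any separate processing of the arrays cannot be told apart here. In mouse 2 of 9 members passed, both lower at 6 h, where 21.6% of all symbols passed and 14.2% were lower. In rat 1 of 9 passed, higher at 6 h, where 18.6% of all symbols passed and 11.3% were higher. After quantile normalization 0 of 9 passed in mouse by limma. Groups without overlap numbered 3 of 9 in mouse (41.1% of all symbols) and 5 of 9 in rat (40.4%).

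Mouse Per1 in shams read 3.49, 2.72 and 3.15 above the median at 6 h, against 3.68, 3.79 and 3.68 at 2 h. It was lower at 6 h in every animal (log2 fold change -0.60 ± 0.17 SE, adjusted p = 0.0297), by 0.40 without 6 h replicate 2. Mouse Bhlhe40 read 4.26, 3.90 and 3.86 in shams at 6 h, against 4.52, 4.57 and 4.37 at 2 h (log2 fold change -0.48 ± 0.13 SE, adjusted p = 0.022). Both calls were lost when any of several arrays was left out, at an adjusted p from 0.0615 to 0.0921 for Per1 and from 0.0598 to 0.0759 for Bhlhe40. Of the glucocorticoid-responsive genes 9 of 12 were lower in mouse shams at 6 h, where 14.2% of all symbols were (median log2 fold change -0.49, and 6 to 9 without 1 array). In rat shams 1 of 12 passed by limma, where 18.6% of all symbols did. The part of these genes was not tested.

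Rat Per2 in shams read 2.23, 2.00 and 1.93 at 6 h, against 1.71, 1.11 and 1.29 at 2 h. It was higher at 6 h without overlap (log2 fold change 0.68 ± 0.15 SE, adjusted p = 0.00789), and held without any 1 of the arrays but not with the striatal covariate (adjusted p = 0.055). Without centring the direction turned (-0.18), since the deposited rat medians drop between the times. Rat Dbp, at 5.36, 5.27 and 5.13 in shams at 6 h against 4.85, 4.38 and 4.87 at 2 h, did not pass (log2 fold change 0.55 ± 0.18 SE, adjusted p = 0.0537), and it also turned without centring (-0.31). Nfil3 differed by 0.01 in mouse shams and 0.02 in rat shams, the rat value being -0.85 without centring. Of the other clock genes, Fbxw11, Wee1 and Nampt were lower in mouse shams at 6 h, by log2 fold changes of -0.22, -0.29 and -0.27 (3 of 24, where 21.6% of all symbols passed). The calls of Fbxw11 and Wee1 were lost without any 1 of the 6 arrays and that of Nampt in 4 of 6 such fits, so that 0 to 1 of 24 passed. Cry1, Timeless, Csnk1e, Gsk3b and Prok2 were higher in rat shams at 6 h, by 0.64, 0.55, 0.52, 0.38 and 0.44 (5 of 24, where 18.6% of all symbols passed), and all 5 turned to lower without centring.

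**Figure D5:**
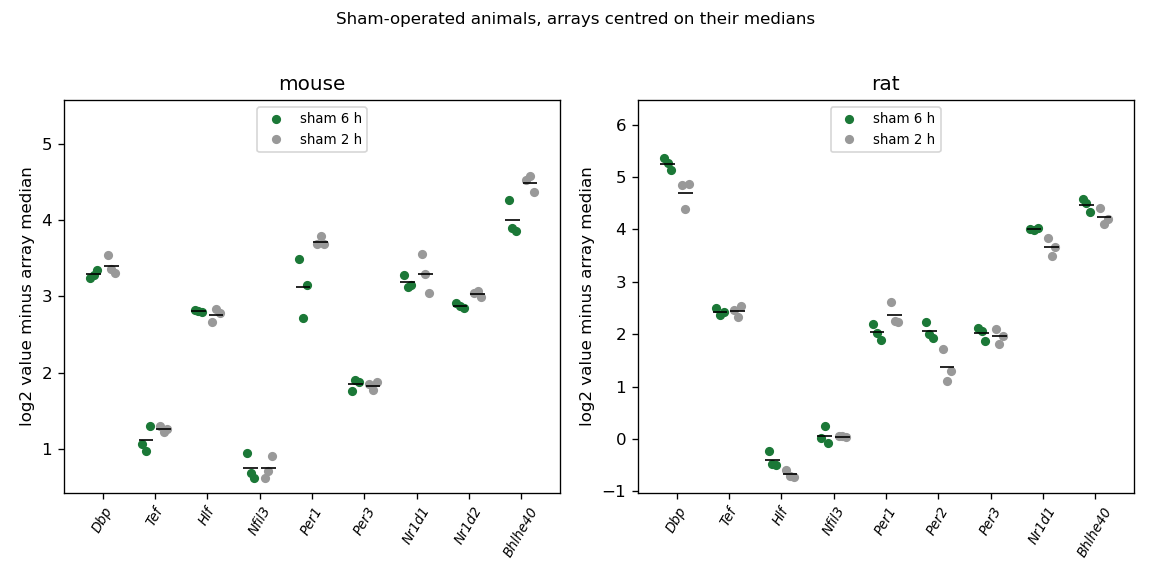
Members in sham animals, 6 h beside 2 h, as log2 difference from the array median, 1 point per animal with the mean, in mouse and rat. Mouse Per1 and Bhlhe40 are lower at 6 h and rat Per2 is higher.

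Genes that followed Dbp and Per1 were ranked by Pearson's r over the 12 centred arrays of a species, which fall into 4 groups, so r largely follows the group means. Mouse Dbp was most like Ptprr (0.977), Apool (0.973), Cc2d2a (0.963), Tubb4a and Pde7b. Rat Dbp was most like Zhx1 (0.971), Tmem184c (0.965), Lrrtm2 (0.953), Nipa1 (0.951) and Rgs19 (0.949). Mouse Per1 was most like Cxcl13 (0.939), Bfsp1, Irf2bp2, Trib1 and Doxl2, and rat Per1 most like Rest (0.902), Usp36 (0.893), Tmem252, Cttnbp2nl and Stard4. None of these 20 is a member or a gene of the clock list.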

How the data were processed

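Brain RNA of 24 animals (3 in each of 8 groups), with an integrity number above 7.5, was hybridised to whole-transcript arrays after WT PLUS labelling, per the labels' protocols. The authors deposited log2 expression values, rounded to 2 decimals, in 1 table for each species (12 arrays). The submitters' processing notes name oligo and limma without a version, and how background and arrays were adjusted is not stated in the labels or files. There were no detection calls, and the number of arrays limits the precision. Group, time and replicate number were read from sample titles, because a separate time label gives 2 h throughout. The labels state 1 animal per array. Equal values between arrays reached at most 2.54% of clusters.

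Clusters with a single platform gene symbol were used (23525 of 41345 in mouse, 18533 of 36685 in rat), taking the brightest cluster of a symbol. Group means were fitted per species with limma 3.58.1 (R 4.3.3) and eBayes, leaving 8 residual degrees of freedom. Tests were two-sided, adjusted by Benjamini-Hochberg over all symbols, with a threshold of 0.05. An exact test of 3 against 3 animals cannot go below 0.1. The species were compared by dividing the difference of their log2 fold changes by its standard error, using Welch-Satterthwaite degrees of freedom. The fits were tested on simulated data. All members are named, plus up to 6 other clock genes past the threshold per comparison and the 5 genes most like Dbp and Per1. The members and lists were chosen with earlier results of these data known. Alternatives were quantile normalization, centring, eBayes with trend and robust settings, array weights, all clusters, the mean of the clusters of a symbol, leaving out dim symbols (mean under the 0.25 quantile), a replicate block, a striatal marker covariate, only the 6 arrays compared, and leaving out each array.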

Additional observations from a re-analysis of the deposited data

Results flagged for a closer look

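The effect of occlusion at 6 h differed between the species, by a test of the difference itself, for 1 member and 1 other clock gene. For Nfil3 the mouse effect minus the rat effect was -1.19 on the log2 scale (adjusted p = 0.0127, Welch-Satterthwaite test on the limma fits), with log2 fold changes of 0.57 in mouse and 1.75 in rat. It held without any 1 of the 12 arrays at 6 h (adjusted p from 5.47e-05 to 0.0417) and was lost with the striatal covariate (adjusted p = 0.0709) and with only the 6 arrays of each species at that time (0.0636). For Rora it was -0.51 (adjusted p = 0.0288), with log2 fold changes of -0.20 in mouse and 0.31 in rat. Rora read 8.32, 8.32 and 8.21 in mouse MCAO animals, against 8.62, 8.41 and 8.43 in shams, and 9.23, 9.24 and 9.59 in rat MCAO animals, against 9.15, 9.0 and 8.99 in shams. The Rora difference was lost in 5 of the 12 fits that left out 1 array (adjusted p from 0.0612 to 0.0896) and with the striatal covariate (adjusted p = 0.208).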

How the results depend on the processing

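With 3 animals a group, differences of the size of Tef at 6 h lay at the threshold. Taking the mean of the clusters of a symbol changed no call among 102 results, and with quantile normalization 7 of 102 lost their call. A sign was read as a direction where a gene was called or its difference exceeded its SE. Of 985 values under the alternatives 32 changed sign. Of these, 13 were counted as reversals, 12 without centring and 1 with quantile normalization. Some of the 13 did not hold a direction in both fits. The main rat sham values of Nfil3 (0.02 ± 0.19 SE) and Per3 (0.06 ± 0.10 SE) lay within their SE. Of 822 values without 1 array 55 changed sign, 0 of them directions. In mouse at 2 h 1 member passed, and 0 passed after centring, quantile normalization, testing all clusters, the replicate block, the striatal covariate, with only the 6 arrays compared, or without any 1 array (0 to 0). In mouse at 6 h 4 passed, and 0 did with the striatal covariate, 1 with only 6 arrays, and 4 to 5 without 1 array. In rat at 6 h 4 passed, and 2 to 4 without 1 array (2 without sham replicate 2). For the change over time 0 passed, against 1 in mouse with trend and robust settings, and in rat 1 with those settings, 2 with array weights and 0 to 2 without 1 array. In mouse shams 2 passed, and 0 did after quantile normalization, 1 with only 6 arrays and 0 to 2 without 1 array. In rat shams 1 passed, and 7 did without centring, 2 with trend and robust settings, 4 with array weights, 2 without the dim symbols, 0 with the striatal covariate and 3 with only 6 arrays. Without centring, the drop of the rat array medians between the times enters the difference of every symbol. Shares of all symbols were counted in the main fits only, so member counts under other settings have no background beside them. In the species difference at 6 h 1 passed, and 2 did with trend and robust settings, 0 with the striatal covariate, 0 with only 6 arrays and 1 to 2 without 1 array. The cause was not tested.

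Without centring, the rat sham differences of 6 h minus 2 h turned to -0.31 for Dbp, -0.59 for Hlf, -0.85 for Nfil3, -0.18 for Per2, -0.81 for Per3, -0.53 for Nr1d1, -0.63 for Bhlhe40, -0.23 for Cry1, -0.31 for Timeless, -0.34 for Csnk1e, -0.49 for Gsk3b and -0.43 for Prok2, since the rat array medians differ between the times. After quantile normalization the mouse sham difference of Dbp turned to 0.0025. Replicate numbers were not treated as pairs in the main fits, and deviations of same-numbered arrays correlated at -0.125 to 0.327. The highest was between MCAO and sham replicate 2 in rat at 2 h. The other MCAO and sham pairings of these arrays at 2 h lay at -0.209 to -0.127. With the replicate block, 4 of 102 results lost their call: Nfil3 in mouse at 2 h (adjusted p = 0.114), Noct in mouse at 6 h (0.0641), and Wee1 (0.0563) and Nampt (0.0518) in mouse shams. At 2 h 0 of 6 mouse arrays and 2 of 6 rat arrays correlated best with the array of their own number in the other group, and at 6 h 3 of 6 and 4 of 6 did.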
